A study of Mus musculus with 14 samples.

Results

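Hedgehog signaling was followed through 10 genes on arrays of fetal and adult mouse prostate cells: the ligands *Shh* and *Ihh*, the receptor and transducer *Ptch1* and *Smo*, the ligand-binding proteins *Hhip* and *Gas1*, the transcription factors *Gli1*, *Gli2* and *Gli3*, and their inhibitor *Sufu*. The genes were chosen by name, as core members of the pathway, out of 17149 genes with a probe set of their own. They are measured by 25 of the 45101 probe sets of the array, and the brightest probe set of a gene (by mean log2 signal over the 14 arrays) stands for it, with the others given one by one. All 25 passed the requirement of a signal above 20 on at least 1 array. The study had itself named *Shh*, *Gli3*, *Sufu*, *Smo* and *Ptch1* from these same samples, so their direction below is not independent evidence. The same holds for *Hhat*, *Disp1*, *Mycn*, *Bcl2* and *Igfbp3*, which come up among the other pathway genes.

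The 14 samples form 4 groups. UGE is the epithelium of the urogenital sinus, the embryonic structure from which the prostate grows, taken at embryonic day 16 from C57BL/6 embryos (3 arrays) and described by the study as enriched in fetal stem cells. The other groups are cells of adult male prostates of strain C57BL, 6 to 8 weeks old by the labels, which the methods place at 6 weeks and in the proximal ducts. Flow cytometry for the surface protein Sca-1 divided them into Sca-1Hi cells (3 arrays, enriched in adult stem cells), Sca-1Lo cells (4 arrays, enriched in transit-amplifying cells) and Sca-1Neg cells (4 arrays, described as the most mature). No group carried a mutation or treatment. UGE was dissected and not sorted by Sca-1, and the methods name no other marker for this sort. Whether the arrays of a group came from separate pools of animals is not given in the sources used here, so p-values measure only the spread between these samples. PLIER, a model-based estimator, gave each probe set 1 signal per array, which is not on a log scale. A signal ranks a gene across arrays, and levels of different probe sets are not compared. The sums of marker lists below add signals of different probe sets, so the brightest weigh most in them.

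Hedgehog ligands are secreted, in many organs by epithelia, and act mostly on neighbouring cells. Without ligand, Ptch1 holds Smo inactive and Sufu restrains the Gli proteins, of which Gli3 is largely cut to a repressor; when ligand binds Ptch1, Smo is released and Gli activators switch on target genes that include *Gli1*, *Ptch1* and *Hhip* themselves. In the developing prostate *Shh* is made by the urogenital sinus epithelium and the response is known mainly from the surrounding mesenchyme.

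The groups differed in cell makeup as well as in stage, as lists of marker genes showed. The summed signal of 10 epithelial genes (such as *Epcam*, *Cdh1* and *Krt5*) was 35696 to 53037 in UGE, 29337 to 33947 in Sca-1Hi and 21063 to 35738 in Sca-1Lo, against 7432 to 31437 in Sca-1Neg. The sum of 10 smooth muscle and pericyte genes ran the other way, with 1907 to 4965 in UGE, 10756 to 32572 in Sca-1Hi and 17091 to 34077 in Sca-1Lo, against 34289 to 110151.7 in Sca-1Neg. Of 6 measured secretory products of the adult gland, 4 were at or below 20 on all UGE arrays. Leukocyte genes were highest in Sca-1Neg (1301 to 40673, against 1529 to 2449.8 in UGE) and endothelial genes in Sca-1Hi (12352 to 23271, against 1561 to 5843 in Sca-1Neg). In UGE the endothelial sum was 214 to 861, with *Pecam1* and *Tie1* at or below 20 on all 3 arrays. UGE replicate 1 stood apart by neuronal genes (the neurofilament gene *Nefl* at 66990, with 39.7 and 41.6 on the other UGE arrays), and Sca-1Neg replicate 4 by the glial gene *Sox10* (12530, with 52.4 to 265 on the other Sca-1Neg arrays) and the highest smooth muscle sum. In such bulk samples, fewer cells of a type and less RNA per cell cannot be told apart.

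Relative to Sca-1Neg, 7 of the 10 genes were called in UGE, with *Shh*, *Ptch1*, *Smo* and *Sufu* higher and *Hhip*, *Gas1* and the representing probe set of *Gli3* lower. A gene was called where limma gave an adjusted p (Benjamini-Hochberg) under 0.05 and the change exceeded 1.75-fold. By this rule 29.2% of all genes were called in UGE (16.3% higher and 12.9% lower). In Sca-1Hi, *Shh* and *Ihh* were higher and *Hhip* lower, 3 of 10 beside 11.3% of all genes (6.11% higher and 5.21% lower). In Sca-1Lo none of the 10 was called by limma, beside 2.51% of all genes. Of these 10 differences, 3 had an unadjusted p under 0.05 (*Shh*, *Ihh* and *Gli3*), and the methods' t-test called 0. The median log2 difference of the 10 genes was 0.27 in UGE, -0.62 in Sca-1Hi and -0.16 in Sca-1Lo, and that of all genes 0.07, 0.03 and 0.08. These 3 comparisons share the Sca-1Neg arrays. Without UGE replicate 1 and Sca-1Neg replicate 4 the count stayed at 7 in UGE and 0 in Sca-1Lo and was 2 in Sca-1Hi, where *Hhip* lost its call.

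**Figure D1:**
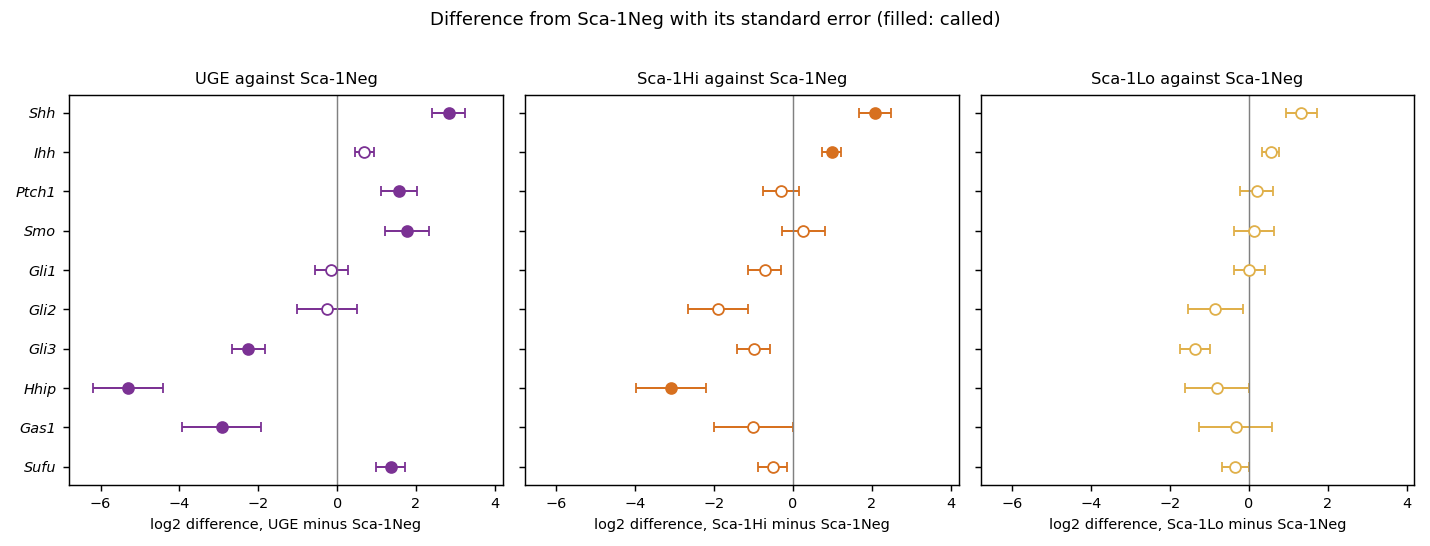
Log2 difference from Sca-1Neg (horizontal axis, with standard error) of the 10 genes in UGE (left), Sca-1Hi (middle) and Sca-1Lo (right), with filled points for called genes. *Shh* lies to the right in all 3 panels (2.82, 2.08 and 1.34) and *Hhip* farthest to the left in UGE (-5.31) and Sca-1Hi (-3.09).

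*Shh*, the Hedgehog ligand of the urogenital sinus, had group means that ran down through UGE, Sca-1Hi, Sca-1Lo and Sca-1Neg, with no step between neighbours called. Its signal (probe set 1436869_at) was 6321, 8139.6 and 7607 on the UGE arrays and 2956, 4923 and 5736 in Sca-1Hi. In Sca-1Lo it was 2195, 1153, 4285 and 4279, and in Sca-1Neg 1232, 767, 1127 and 1073. Every UGE array lay above every Sca-1Hi array, all Sca-1Hi arrays lay above all Sca-1Neg arrays, and Sca-1Lo overlapped both of its neighbours. *Shh* was 7.08-fold higher in UGE than in Sca-1Neg (log2 difference 2.82 ± 0.42 SE, adjusted p = 2.61e-04) and 4.23-fold higher in Sca-1Hi (2.08 ± 0.42 SE, adjusted p = 0.00674). The difference of Sca-1Lo, 1.34 ± 0.38 SE, was not called (adjusted p = 0.101), although 3 of 4 arrays lay above all Sca-1Neg arrays. Sca-1Hi and Sca-1Lo differed by 0.74 ± 0.42 SE (adjusted p = 0.577).

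The UGE call of *Shh* was kept in every alternative tried. The Sca-1Hi call was lost with the methods' t-test (adjusted p = 0.0623). The adult arrays carry study numbers whose meaning is not stated. Among the arrays of low number (1 and 2) the Sca-1Hi difference was 1.61 (adjusted p = 0.115, a single Sca-1Hi array) and among those of high number (3 to 5) it was 2.27 (adjusted p = 0.00609). In Sca-1Lo, *Shh* was called without Sca-1Lo replicate 2 (1.73, adjusted p = 0.0141) and with the study numbers as a block (adjusted p = 0.0355). It was also called with quantile normalization (1.17, adjusted p = 0.0485), centring on the 75th percentile (1.31, adjusted p = 0.0423) and array weights (1.56, adjusted p = 0.00586). The Sca-1Lo difference was called in the high numbers alone (1.96, adjusted p = 0.0173), against 0.71 (adjusted p = 0.395) in the low numbers. The median epithelial sum was also highest in UGE (41956) and lowest in Sca-1Neg (12429.5). In UGE the sum had the order of *Shh* over the arrays (35696, 53037 and 41956). The orders differed in Sca-1Hi (29584, 33947 and 29337), Sca-1Lo (30930, 21063, 35738 and 29036) and Sca-1Neg (12309, 7432, 31437 and 12551). In Sca-1Lo and in Sca-1Neg, replicate 2 had both the lowest sum and the lowest *Shh* signal. Of the single markers, *Krt5* had the order of *Shh* in UGE, Sca-1Hi and Sca-1Lo, but not in Sca-1Neg. *Cdh1* had it in UGE alone and *Epcam* in no group. The part of the epithelial sum in the result was not tested. The second *Shh* probe set, 1427571_at, read 18.9 to 40.1 on all arrays and was called in no comparison.

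*Ihh*, a second ligand best known from cartilage and gut, was lower in Sca-1Neg than in the other groups by a smaller margin. Its signal was 356, 275 and 368 in UGE, 476, 390.5 and 356 in Sca-1Hi, 398, 283, 286 and 256 in Sca-1Lo, and 177, 223, 236 and 189 in Sca-1Neg. All 10 arrays of the first 3 groups lay above all 4 Sca-1Neg arrays. The Sca-1Hi difference was called (1.97-fold higher, log2 0.98 ± 0.23 SE, adjusted p = 0.0167). That of UGE was below the fold minimum (0.69 ± 0.23 SE, adjusted p = 0.042), and that of Sca-1Lo had an adjusted p of 0.25 (0.56 ± 0.22 SE). The Sca-1Hi call was lost without Sca-1Hi replicate 1 (0.86, adjusted p = 0.06), Sca-1Hi replicate 2 (1.01, adjusted p = 0.0632) or Sca-1Neg replicate 1 (0.91, adjusted p = 0.05). Centring on the 75th percentile also ended it (0.92, adjusted p = 0.0534), as did the methods' t-test (adjusted p = 0.0697). The difference was 1.26 (adjusted p = 0.12) in the low and 0.82 (adjusted p = 0.0934) in the high study numbers.

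**Figure D2:**
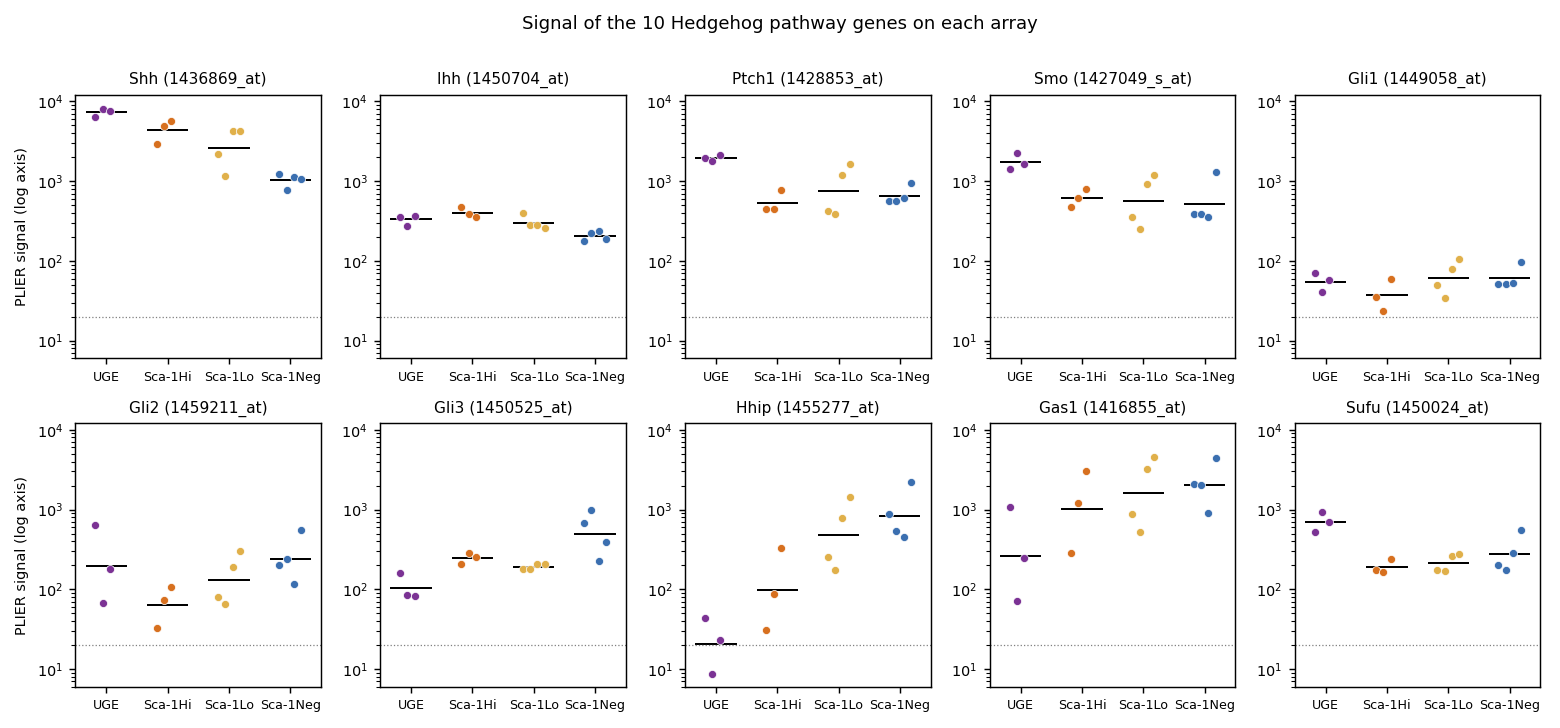
PLIER signal (vertical log axis) of the representing probe set of each of the 10 genes on the UGE, Sca-1Hi, Sca-1Lo and Sca-1Neg arrays, 1 point per array, with bars at the mean of the log2 signals and a dotted line at 20. *Shh* steps down through the 4 groups, *Ptch1*, *Smo* and *Sufu* are high in UGE, and *Hhip* runs from 8.78 on a UGE array to 2209.9 on a Sca-1Neg array.

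*Ptch1*, the receptor that holds Smo inactive and is itself a target of the pathway, was highest in UGE by its representing probe set. Its signal (1428853_at) was 1948, 1773 and 2157 in UGE, 444, 446 and 772 in Sca-1Hi, 425, 387, 1179.7 and 1639 in Sca-1Lo, and 561, 560.2, 613 and 955 in Sca-1Neg. No adult array reached the lowest UGE array, and the 3 adult groups overlapped. The gene was 2.98-fold higher in UGE than in Sca-1Neg (log2 1.58 ± 0.46 SE, adjusted p = 0.0205). A second probe set, 1439663_at, gave 2.91-fold (adjusted p = 0.00434). It overlapped the adult groups, with 105, 166 and 212 in UGE beside 69.8 to 127 in Sca-1Hi and up to 115 in Sca-1Lo, and was not called against Sca-1Hi (0.64, adjusted p = 0.214) or Sca-1Lo (0.92, adjusted p = 0.0652). The third, 1450824_at, was at 9.87 to 30.2 on all arrays and not called. The call missed the threshold without UGE replicate 2 (1.65, adjusted p = 0.0514), UGE replicate 3 (1.50, adjusted p = 0.0731) or Sca-1Neg replicate 1 (1.50, adjusted p = 0.0517). In the low and high study numbers the difference was 1.80 (adjusted p = 0.00106) and 1.35 (adjusted p = 0.0246).

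*Smo*, the membrane protein that carries the signal inward, had the same high position in UGE. Its signal (1427049_s_at) was 1417, 2239 and 1646 in UGE, 474, 618 and 789 in Sca-1Hi, 351, 251, 911 and 1208 in Sca-1Lo, and 387, 386, 355 and 1288 in Sca-1Neg. All UGE arrays lay above all adult arrays, the nearest being Sca-1Neg replicate 4, far above its own group. The difference between UGE and Sca-1Neg was 3.40-fold (log2 1.76 ± 0.55 SE, adjusted p = 0.0296), and 1427048_at gave 3.52-fold (adjusted p = 0.0444). The call was lost without UGE replicate 2, UGE replicate 3, Sca-1Neg replicate 1, 2 or 3 (differences of 1.58, 1.80, 1.63, 1.63 and 1.59; adjusted p = 0.112, 0.076, 0.0745, 0.0721 and 0.06), with the methods' t-test (adjusted p = 0.105) and in the high study numbers (1.36, adjusted p = 0.0946, against 2.17, adjusted p = 0.00121, in the low ones). Without Sca-1Neg replicate 4 it rose to 2.21. The third probe set, 1442215_at, was called higher in UGE (adjusted p = 0.0351) and in Sca-1Hi (adjusted p = 0.00622). It read 13.0 to 34.0 in UGE and 26.0 to 93.2 in Sca-1Hi against 1.94 to 7.53 in Sca-1Neg, where every array was under 20.

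The sequences just upstream of *Ptch1* and *Smo*, called higher together in UGE, are shown because *Ptch1* is a known target of the Gli factors. Each is the 250 bases before the gene start listed by RefSeq on build GRCm38.p6, on the strand of the gene (*Ptch1*: chr13:63565736-63565985, minus strand. *Smo*: chr6:29735247-29735496, plus strand). Capitals mark the core of the Gli site, CCACCC, on either strand.
Ptch1: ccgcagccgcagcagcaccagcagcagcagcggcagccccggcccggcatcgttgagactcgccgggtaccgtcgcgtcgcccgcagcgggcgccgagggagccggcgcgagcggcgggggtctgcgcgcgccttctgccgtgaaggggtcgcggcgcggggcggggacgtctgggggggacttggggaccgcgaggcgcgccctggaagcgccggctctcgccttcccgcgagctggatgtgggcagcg
Smo: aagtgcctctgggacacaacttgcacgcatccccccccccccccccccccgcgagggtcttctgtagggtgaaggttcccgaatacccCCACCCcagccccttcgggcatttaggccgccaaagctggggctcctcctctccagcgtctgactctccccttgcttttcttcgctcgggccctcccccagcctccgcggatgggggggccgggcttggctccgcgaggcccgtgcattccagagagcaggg
The core has 1 match in the *Smo* window and 0 in that of *Ptch1*.

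*Hhip*, a membrane protein that binds and sequesters Hedgehog ligands and is induced by the pathway, had the widest range of the 10 genes. Its signal (1455277_at) was 43.6, 8.78 and 23.5 in UGE, 31.2, 88.4 and 332 in Sca-1Hi, 256, 175, 788 and 1424 in Sca-1Lo, and 867, 534, 453 and 2209.9 in Sca-1Neg. UGE and Sca-1Hi lay below every Sca-1Neg array, and Sca-1Lo overlapped both of its neighbours. *Hhip* was 39.7-fold lower in UGE than in Sca-1Neg (log2 -5.31 ± 0.88 SE, adjusted p = 6.56e-04) and 8.50-fold lower in Sca-1Hi (-3.09 ± 0.88 SE, adjusted p = 0.0374). The UGE signal was above 20 on only 2 of 3 arrays, so the size of the UGE fold is imprecise. All 4 probe sets were called lower in both comparisons. For 1438083_at and 1421426_at, which were under 20 on every UGE array, the UGE signal was at least 9.94-fold and 7.62-fold lower, taking the floor of 20 for UGE.

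The UGE call of *Hhip* was kept in every alternative tried. The Sca-1Hi call was lost with the methods' t-test (adjusted p = 0.184). It was also lost without UGE replicate 3 (-3.09, adjusted p = 0.0519), Sca-1Hi replicate 1 (-2.27, adjusted p = 0.131), Sca-1Hi replicate 2 (-3.02, adjusted p = 0.134), Sca-1Neg replicate 1 (-3.06, adjusted p = 0.0765) or Sca-1Neg replicate 4 (-2.61, adjusted p = 0.0893). In the low and high study numbers it was -4.45 (adjusted p = 0.0229) and -2.55 (adjusted p = 0.13). Beside 12.9% of all genes, all 10 smooth muscle and pericyte genes were also lower in UGE than in Sca-1Neg, with a median log2 difference of -5.06. In Sca-1Hi, beside 5.21% of all genes, 5 of these 10 were lower (median -2.47). Their part in the *Hhip* result was not tested. Within Sca-1Hi and within Sca-1Neg, *Hhip* had the same order over the arrays as their sum (10756, 11121 and 32572 in Sca-1Hi and 49393, 38751, 34289 and 110151.7 in Sca-1Neg). In Sca-1Lo, where the sums were 29857, 18555, 17091 and 34077, the order was the same except for replicate 3, with the lowest sum and the second highest *Hhip* signal. In UGE (4965, 2364 and 1907) the orders differed. The sum of 14 fibroblast and mesenchyme genes had the order of *Hhip* in UGE (22010, 7286 and 8361) and Sca-1Hi (14449, 37265 and 60427). It also did in Sca-1Lo (22437, 12208, 59831 and 75442), but not in Sca-1Neg (21389, 19443, 23502.5 and 56710). Its part was not tested either.

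**Figure D3:**
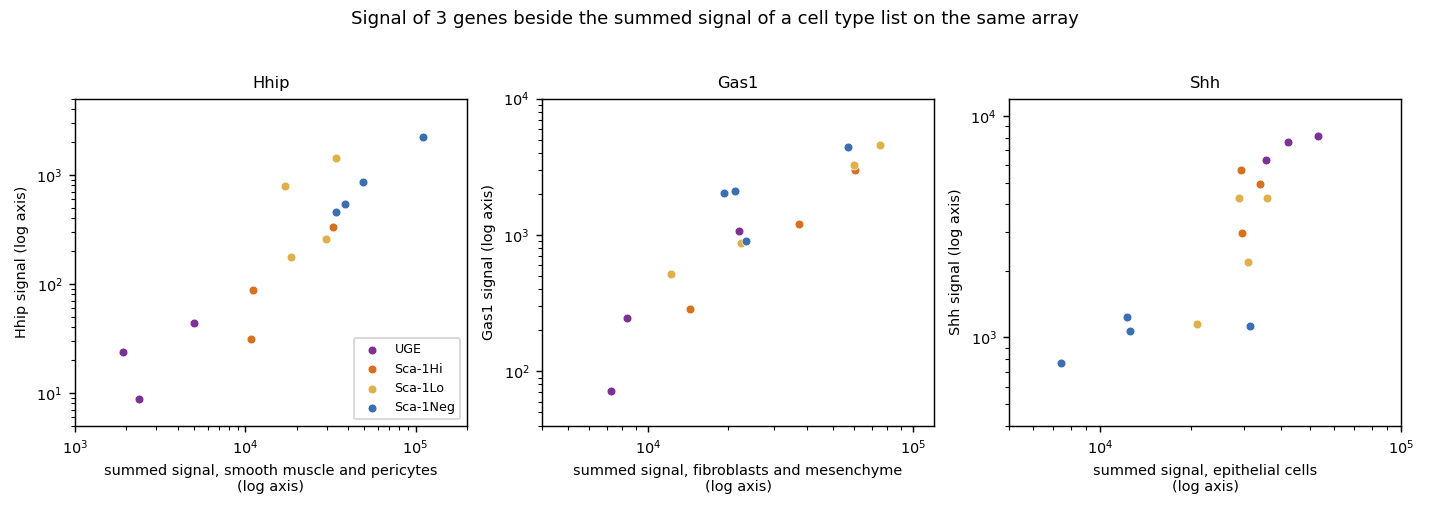
Signal of *Hhip*, *Gas1* and *Shh* (vertical log axes) against the summed signal of a marker list on the same array (horizontal log axes: smooth muscle and pericytes, fibroblasts and mesenchyme, epithelial cells), 1 point per array. UGE has the lowest *Hhip* signals (8.78 to 43.6) and the lowest smooth muscle sums (1907 to 4965), and the Sca-1Neg replicate of highest sum (110151.7) has the highest *Hhip* signal (2209.9).

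*Gas1*, a cell surface co-receptor that aids ligand binding, spread widely inside each group. Its signal (1416855_at) was 1068, 71.6 and 244 in UGE, 286, 1202 and 2999 in Sca-1Hi, 879, 520.3, 3242 and 4557 in Sca-1Lo, and 2091, 2024, 902 and 4393 in Sca-1Neg. UGE replicate 1 overlapped the Sca-1Neg range and the other UGE arrays lay below it. UGE was 7.63-fold lower than Sca-1Neg (log2 -2.93 ± 1.0 SE, adjusted p = 0.0435). Of the other probe sets, 1456322_at was called lower (adjusted p = 0.00774) and 1448494_at was not (adjusted p = 0.0746). The representing probe set lost its call with the methods' t-test (adjusted p = 0.148). The call was lost without any of UGE replicates 2 and 3, Sca-1Hi replicate 2, Sca-1Lo replicate 1 and Sca-1Neg replicates 1, 2 and 4 (differences of -1.99, -2.87, -2.93, -2.93, -2.92, -2.93 and -2.56; adjusted p = 0.215, 0.115, 0.0553, 0.0514, 0.0818, 0.0802 and 0.0935). In the low and high study numbers the difference was -2.96 (adjusted p = 0.0363) and -2.91 (adjusted p = 0.0951). The summed signal of 14 fibroblast and mesenchyme genes was 22010 on UGE replicate 1, against 7286 and 8361 on the other UGE arrays, and 19443 to 56710 in Sca-1Neg. Its part in the *Gas1* result was not tested.

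*Gli1*, the target gene most often used as a readout of the pathway, was low everywhere and called in no comparison. Its signal was 70.0, 40.7 and 57.5 in UGE, 35.3, 23.7 and 60.1 in Sca-1Hi, 49.2, 34.3, 78.5 and 107 in Sca-1Lo, and 50.9, 51.9, 52.7 and 97.6 in Sca-1Neg. The 4 groups overlapped, and the UGE difference was -0.15 ± 0.42 SE (adjusted p = 0.826). *Gli2*, the main activator of the family, was also called in no comparison. Its signal (1459211_at) was 636, 66.6 and 181 in UGE, 32.6, 73.2 and 107 in Sca-1Hi, 79.8, 65.5, 188 and 300.0 in Sca-1Lo, and 199, 241, 118 and 553 in Sca-1Neg. The UGE difference from Sca-1Neg (-0.26 ± 0.75 SE) was -1.11 without UGE replicate 1, the array with neuronal genes, and 0.52 without UGE replicate 2. With this probe set all Sca-1Hi arrays lay below all Sca-1Neg arrays (-1.90 ± 0.75 SE, adjusted p = 0.116). The difference was called only with the study numbers as a block (-2.08, adjusted p = 0.0185). The second probe set, 1446086_s_at, read 24.8 to 56.2 in UGE, 13.4 to 45.9 in Sca-1Hi, 18.9 to 64.1 in Sca-1Lo and 24.2 to 70.1 in Sca-1Neg. There the Sca-1Hi and Sca-1Neg arrays overlapped.

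*Gli3*, the family member that serves mainly as a repressor, was read in opposite directions by its probe sets. The representing one, 1450525_at, gave 161, 84.1 and 82.7 in UGE, 208, 289 and 253 in Sca-1Hi, 178, 178, 209 and 207 in Sca-1Lo, and 669, 996, 229 and 394 in Sca-1Neg. All UGE arrays were the lowest, and the difference from Sca-1Neg was -2.25 ± 0.42 SE (4.77-fold lower, adjusted p = 0.00135). Of 11 leukocyte genes, 5 were lower in UGE than in Sca-1Neg, beside 12.9% of all genes. Their summed signal had the same order over the arrays as this probe set in UGE (2449.8, 1723 and 1529) and in Sca-1Neg (17927, 40673, 1301 and 6675). The orders differed in Sca-1Hi (870.8, 713.9 and 684.7) and in Sca-1Lo (1914.9, 1583.2, 1089.6 and 1060.0). Sca-1Hi also had lower leukocyte sums than UGE but higher signals of this probe set. *Csf1r* alone gave 23760 of the sum of 40673 on Sca-1Neg replicate 2 and 1786 of 2449.8 on UGE replicate 1. The part of the leukocyte genes in the result was not tested. By contrast 1455154_at gave 721, 688 and 712 in UGE, 51.9, 82.6 and 130.1 in Sca-1Hi, 93.8, 65.0, 277 and 289.6 in Sca-1Lo, and 72.5, 61.7, 74.9 and 154 in Sca-1Neg. Here all UGE arrays were the highest, 8.34-fold above Sca-1Neg (3.06 ± 0.52 SE, adjusted p = 7.19e-04), and 1456067_at gave 4.91-fold in the same direction (2.30 ± 0.46 SE, adjusted p = 0.00234).

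In Sca-1Lo all 4 arrays read lower with 1450525_at than every Sca-1Neg array, but the difference was not called (-1.36 ± 0.38 SE, adjusted p = 0.093). It was called without Sca-1Neg replicate 3 (-1.73, adjusted p = 0.0081) and in the low study numbers (-2.20, adjusted p = 0.028).

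The 2 probe sets that were high in UGE correlated at r = 0.992 over the 14 arrays, and each at -0.654 and -0.643 with 1450525_at. These are descriptions over arrays of 4 groups. In the UGE comparison 89 of 8335 genes with several probe sets (1.07%) held calls in both directions, and *Gli3* was the only one of the 10 genes here. All 3 probe sets kept their call when any single array was left out, and 1450525_at missed it with the methods' t-test (adjusted p = 0.0765). Its difference was -2.98 (adjusted p = 7.16e-04) in the low and -1.53 (adjusted p = 0.0225) in the high study numbers. With the mean of the probe sets as the value of the gene, *Gli3* was 1.03 higher in UGE on the log2 scale. The files give no transcript coordinates for these probe sets, so the direction of *Gli3* in UGE is not settled here. The 250 bases before its RefSeq start (GRCm38.p6, chr13:15463473-15463722, plus strand) are shown for this gene, with the core CCACCC or its complement in capitals.
Gli3: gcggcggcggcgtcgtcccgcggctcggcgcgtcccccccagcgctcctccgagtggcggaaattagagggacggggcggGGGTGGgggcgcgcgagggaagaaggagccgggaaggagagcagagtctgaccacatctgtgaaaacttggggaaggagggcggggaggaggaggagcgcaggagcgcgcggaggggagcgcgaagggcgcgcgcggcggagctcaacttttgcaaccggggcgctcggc
The core has 1 match there, on the opposite strand.

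**Figure D4:**
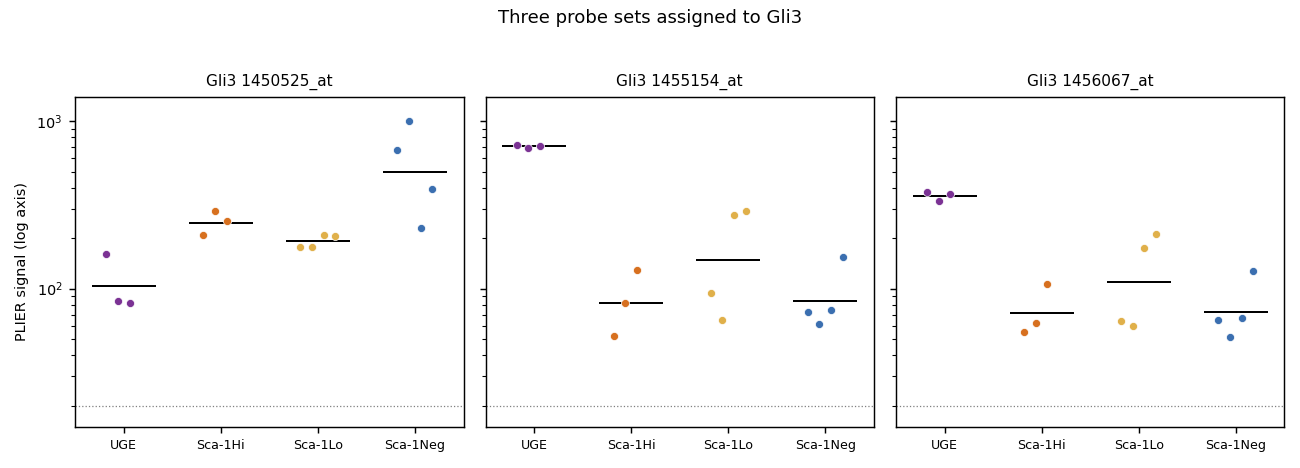
PLIER signal (vertical log axis) of the 3 probe sets assigned to *Gli3* on the UGE, Sca-1Hi, Sca-1Lo and Sca-1Neg arrays, 1 point per array, with bars at the mean of the log2 signals and a dotted line at 20. UGE is lowest in the left panel (82.7 to 161) and highest in the middle (688 to 721) and right (334 to 375) panels.

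*Sufu*, the cytoplasmic inhibitor that binds Gli proteins, was higher in UGE. Its signal (1450024_at) was 518, 923 and 708 in UGE, 175, 164 and 242 in Sca-1Hi, 175, 169, 265 and 281 in Sca-1Lo, and 200.5, 177, 285 and 553 in Sca-1Neg. Only Sca-1Neg replicate 4 overlapped the UGE arrays. The difference between UGE and Sca-1Neg was 2.55-fold (log2 1.35 ± 0.38 SE, adjusted p = 0.0172). It missed the threshold without UGE replicate 2 (1.15, adjusted p = 0.086), UGE replicate 3 (1.34, adjusted p = 0.0567) or Sca-1Neg replicate 1 (1.20, adjusted p = 0.0521), and was 1.89 (adjusted p = 0.00238) in the low and 0.81 (adjusted p = 0.165) in the high study numbers. The other probe sets, 1431713_at and 1420848_at, were at 39.5 to 104 and 19.4 to 68.6 on all arrays and were not called against Sca-1Neg. With the mean of the probe sets the *Sufu* difference was 0.27 and not called (adjusted p = 0.295). The call was also lost with the methods' t-test (adjusted p = 0.136) and in the fit of only the 2 groups compared (adjusted p = 0.0582).

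Compared with Sca-1Hi, UGE was higher in *Ptch1* (3.65-fold, log2 1.87 ± 0.49 SE, adjusted p = 0.0122) and *Sufu* (3.66-fold, 1.87 ± 0.40 SE, adjusted p = 0.00402), 2 of 10 genes beside 27.8% of all genes. With the mean of the probe sets of a gene both calls were lost (*Ptch1* 0.53, adjusted p = 0.231, and *Sufu* 0.28, adjusted p = 0.337). The *Ptch1* call missed the threshold without Sca-1Hi replicate 2 (1.74, adjusted p = 0.0503). *Smo* was 1.50 ± 0.59 SE higher on the log2 scale with an adjusted p of 0.0763, which passed without Sca-1Neg replicate 4 (adjusted p = 0.0408), with the methods' t-test (adjusted p = 0.0384), with only the groups compared (adjusted p = 0.00919), with the replicate block (adjusted p = 0.0147), with array weights (adjusted p = 0.00349) and in the low study numbers (1.87, adjusted p = 0.0131). *Hhip* differed by -2.22 ± 0.95 SE (adjusted p = 0.0999) and was called without Sca-1Hi replicate 1 (-3.04, adjusted p = 0.0402), with the replicate block (adjusted p = 0.0441), with array weights (-3.18, adjusted p = 3.58e-04) and in the high study numbers (-3.04, adjusted p = 0.0372). *Shh* differed by 0.74 ± 0.44 SE (adjusted p = 0.241) although the arrays did not overlap. The other *Gli3* probe sets were both higher in UGE (1455154_at by 3.10, adjusted p = 0.00111, and 1456067_at by 2.32, adjusted p = 0.00347). The representing one differed by -1.26 ± 0.44 SE (adjusted p = 0.0513), which passed without UGE replicate 1 (-1.57, adjusted p = 0.0309), Sca-1Neg replicate 2 (adjusted p = 0.0246) or Sca-1Neg replicate 3 (adjusted p = 0.017). It also passed with a signal above 20 required on at least 3 arrays (adjusted p = 0.0489) and with only the groups compared (adjusted p = 0.0252). An intensity trend with robust estimates (adjusted p = 0.0495), array weights (-1.55, adjusted p = 2.35e-05) and the high study numbers (-1.38, adjusted p = 0.0264) gave the call too. The mean of the *Gli3* probe sets reversed it (1.39, adjusted p = 0.0156). For *Sufu* the weak probe set 1420848_at was called the other way, 2.02-fold lower in UGE (adjusted p = 0.0147).

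Compared with Sca-1Lo, 5 of 10 genes were called in UGE, beside 25.6% of all genes. *Shh* was 2.80-fold (adjusted p = 0.0196), *Ptch1* 2.60-fold (adjusted p = 0.043), *Smo* 3.11-fold (adjusted p = 0.0465) and *Sufu* 3.22-fold higher (adjusted p = 0.00557), and *Hhip* 22.8-fold lower (adjusted p = 0.00236). *Gli3* again ran both ways, higher by 2.25 with 1455154_at (adjusted p = 0.00644) and by 1.72 with 1456067_at (adjusted p = 0.0154), and at -0.89 ± 0.42 SE with 1450525_at (adjusted p = 0.141). *Hhip* and *Sufu* kept these calls without any single array. The others did not, with adjusted p of up to 0.0731 for *Shh* (without UGE replicate 2, UGE replicate 3 or Sca-1Lo replicate 1), 0.133 for *Ptch1* (without any of UGE replicates 1 to 3, Sca-1Hi replicates 1 and 2, Sca-1Lo replicates 1 and 2 or Sca-1Neg replicate 1) and 0.157 for *Smo* (without any of UGE replicates 1 to 3, Sca-1Hi replicates 1 to 3, Sca-1Lo replicates 1 and 2 or Sca-1Neg replicates 1 and 2). Sca-1Lo was split by study number. Replicates 3 and 4, of high number, had more *Shh* (mean 4282, against 1674 on replicates 1 and 2), *Ptch1* (1409, against 406), *Smo* (1059.5, against 301) and *Hhip* (1106, against 216). The fibroblast and mesenchyme sum was split the same way, at 59831 and 75442 on replicates 3 and 4, against 22437 and 12208 on replicates 1 and 2, and its part in these differences was not tested. In the high numbers the UGE difference was 0.77 for *Shh* (adjusted p = 0.0526), 0.49 for *Ptch1* (adjusted p = 0.355) and 0.73 for *Smo* (adjusted p = 0.367). In the low numbers it was 2.20 (adjusted p = 0.00311), 2.27 (adjusted p = 4.46e-04) and 2.55 (adjusted p = 6.93e-04). Between Sca-1Hi and Sca-1Lo limma called 0 of 10, beside 0.0991% of all genes. *Hhip* alone had an unadjusted p under 0.05, and the methods' t-test called 0.

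The promoter windows of RefSeq (300 bases around a gene start) hold 8 of the 10 genes, without *Shh* and *Gli1*. The 9-base Gli consensus GACCACCCA was searched on both strands and matched in 0 of 8, beside 0.253% of 32851 windows. Its core CCACCC, a part of the consensus, matched in 5 of 8 (*Ihh*, *Smo*, *Gli2*, *Gli3* and *Hhip*), beside 31.5% of all windows. The *Hhip* window is printed because this gene differed most, as the 250 bases before the start (GRCm38.p6, chr8:80058009-80058258, minus strand), with the core in capitals.
Hhip: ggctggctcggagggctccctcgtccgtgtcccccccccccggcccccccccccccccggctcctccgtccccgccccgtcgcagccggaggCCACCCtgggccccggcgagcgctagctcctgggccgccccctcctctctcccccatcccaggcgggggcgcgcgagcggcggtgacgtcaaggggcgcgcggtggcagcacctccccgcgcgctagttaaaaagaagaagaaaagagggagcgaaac
A match of letters describes the window and is not evidence of binding.

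Other genes of the pathway were taken from 3 lists. The lists were chosen with earlier results of these data known, so their counts are not independent evidence. Of 12 measured genes of ligand processing and co-reception, 5 were higher and 1 lower in UGE than in Sca-1Neg, with a median log2 difference of 1.18 beside 0.07 over all genes, of which 16.3% were called higher and 12.9% lower. *Scube3*, which helps release lipid-bearing ligand, had 5041, 4209 and 5565 in UGE, against 49.0, 87.5, 87.4 and 1823 in Sca-1Neg (4.92 ± 0.90 SE, adjusted p = 0.00129). Again Sca-1Neg replicate 4 stood far above the others of its group. The co-receptor *Cdon* (1.99, adjusted p = 8.38e-04), the glypican *Gpc3* (1.69, adjusted p = 0.0166), the acyltransferase *Hhat* that lipid-modifies the ligand (1.64, adjusted p = 0.0194) and the ligand exporter *Disp1* (1.35, adjusted p = 0.0105) were also higher. *Dhh*, the third ligand and a Schwann cell product, was lower (-2.17, adjusted p = 0.0414), with 14.8 to 26.8 in UGE against 14.1 to 298 in Sca-1Neg. In Sca-1Hi only *Gpc3* was called (-1.60, adjusted p = 0.0411), beside 11.3% of all genes. In Sca-1Lo none of the 12 was, beside 2.51% of all genes.

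Of 17 measured genes of the cilium and of transduction, 3 were higher and 0 lower in UGE (median 0.34), beside 16.3% and 12.9% of all genes, so that the count of higher genes was near the background. They were the kinases *Gsk3b* (1.70, adjusted p = 0.00676) and *Csnk1a1* (1.04, adjusted p = 0.0485), which phosphorylate Gli proteins, and the ciliary receptor *Gpr161*, a brake on the pathway (1.05, adjusted p = 0.0163). *Gpr161* was the only one called in Sca-1Hi (1.57, adjusted p = 0.00432) and in Sca-1Lo (1.38, adjusted p = 0.019), beside 11.3% and 2.51% of all genes. Its signal was 65.0 to 75.1 in UGE, 89.9 to 115 in Sca-1Hi and 69.9 to 99.6 in Sca-1Lo, against 21.8 to 50.9 in Sca-1Neg, with no overlap between Sca-1Neg and the others.

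Of 16 measured genes listed as transcriptional targets, 4 were higher and 2 lower in UGE (median 0.41), beside 16.3% and 12.9% of all genes. *Mycn*, a growth-promoting transcription factor, had 2912, 3786 and 4940 in UGE, 90.5, 72.4 and 135 in Sca-1Hi and 50.6 to 85.1 in Sca-1Lo, against 27.7, 58.2, 6.60 and 45.0 in Sca-1Neg. It was the most changed gene of the lists (7.17 ± 0.57 SE, adjusted p = 1.69e-06), and was also called in Sca-1Hi (1.87, adjusted p = 0.0488). *Sfrp1*, a secreted Wnt inhibitor (3.18, adjusted p = 0.0055), the survival gene *Bcl2* (2.62, adjusted p = 5.32e-04) and the cyclin *Ccnd2* (1.82, adjusted p = 0.0338) were higher, and *Igfbp6* (-4.05, adjusted p = 0.0035) and *Bmp2* (-1.79, adjusted p = 0.0196) lower. All 11 measured cell division genes were higher in UGE too (median 3.39), beside 16.3% of all genes. The part of the cell division genes in these results was not tested. In Sca-1Hi the mesenchymal factors *Foxf2* (-3.18, adjusted p = 0.00454) and *Osr2* (-2.48, adjusted p = 0.0349) were lower and *Igfbp3* was higher (3.94, adjusted p = 4.86e-04). With *Mycn*, 2 of the 16 targets were higher and 2 lower in Sca-1Hi, beside 6.11% and 5.21% of all genes. *Igfbp3* was the only target called in Sca-1Lo (3.41, adjusted p = 0.00262), beside 2.51% of all genes. Endothelial genes were higher in the same groups. Beside 6.11% of all genes, 9 of 10 were higher in Sca-1Hi (median 3.635). Beside 2.51% called in either direction, 8 of 10 were higher in Sca-1Lo (median 2.942). Their part in the *Igfbp3* result was not tested.

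**Figure D5:**
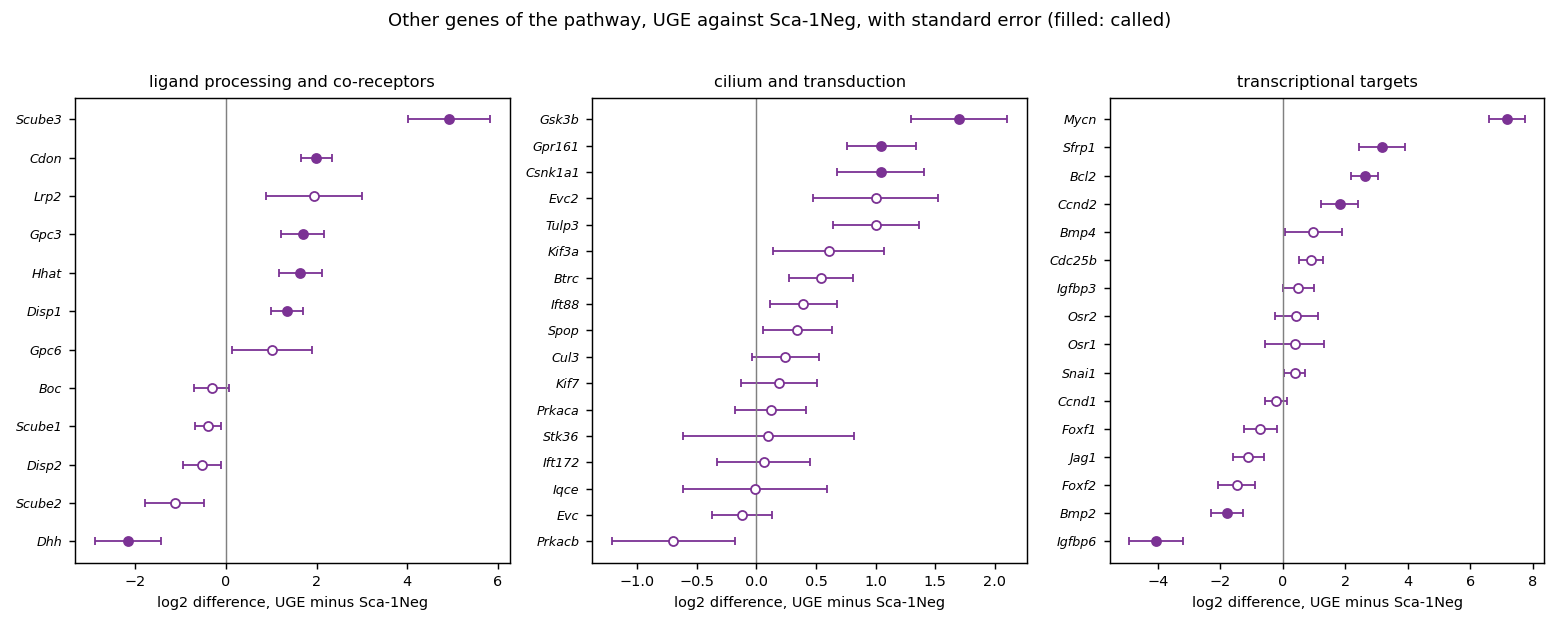
Log2 difference between UGE and Sca-1Neg (horizontal axis, with standard error) of the other measured pathway genes in 3 lists, ordered by size, with filled points for called genes. *Scube3* (4.92) and *Mycn* (7.17) lie farthest to the right and *Dhh* (-2.17) and *Igfbp6* (-4.05) farthest to the left in their panels.

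The genes whose log2 signal ran most like that of a member over the 14 arrays are given as a description. For *Shh* they were *Inava* (r = 0.985), *Zdhhc15* (0.966) and *Sfn* (0.963), and for *Ptch1* *Gabpa* (0.975), *Map4k5* (0.972) and *Gpc1* (0.971). *Smo* ran closest to *Dock1* (0.986), *Itsn1* (0.982) and *Chst11* (0.978), and *Gli2* to *Ror1* (0.941), *Runx1t1* (0.928) and *Prrx1* (0.923). The 2 directions of *Gli3* had different neighbours, with *Tcstv1* (0.977), *Wnt7a* (0.965) and *Cd163l1* (0.965) for 1450525_at and *Mex3c* (0.984), *Armcx4* (0.979) and *Myh10* (0.978) for 1455154_at. The arrays share their groups, so such values are high for many genes.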

How the data were processed

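RNA of 14 mouse prostate samples was hybridized by the authors to Affymetrix MOE430 2.0 arrays after two-cycle labeling. The deposited values are linear intensity estimates by PLIER, made by the authors in ArrayAssist from CEL files. The step that normalizes between arrays and the genome build are not given in the sources used here, and the authors' MAS5 detection calls were not used. Median signals per array ran from 64.3 to 81.0, and the number of arrays limits the precision.

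Log2 was taken of each signal, without a constant. The 41031 probe sets above 20 on at least 1 array, array controls left out, were tested with limma 3.58.1 in R 4.3.3 (lmFit, eBayes) in 1 fit of the 4 group means, and all adjusted p-values are Benjamini-Hochberg values over these probe sets. Genes were named through the platform annotation (34945 probe sets with 1 gene symbol, 932 with several and 9160 with none, besides 64 array controls; only the first kind enters gene counts). A bound sets each signal to at least 20. Named genes are the 10 members with all probe sets, up to 6 called genes of each pathway list and comparison by size of change, markers beside a result, and the 3 genes nearest to 5 members by Pearson correlation. The members and lists were chosen with earlier results of these data known. Study numbers come from column names of supplementary tables, matched by values of 1220 probe sets. The method was tested on simulated data. Alternatives were other filters, constants, normalizations, tests, weights, blocks, study numbers alone and each array left out. The arrays of high nerve genes were left out after seeing the data. Sca-1Lo and Sca-1Neg arrays of the same replicate number had correlations of deviations from group means of 0.124 to 0.558 in 4 of 4 pairs. Arrays of unlike number reached similar values (0.409 for Sca-1Lo replicate 2 with Sca-1Neg replicate 1). Pairing by number was therefore neither shown nor excluded. Python 3.11.15, pandas 2.3.3 and matplotlib 3.10.9 were used for tables and figures.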

Additional observations from a re-analysis of the deposited data

Results flagged for a closer look

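In groups of 4 arrays, the gap between an extreme array and its nearest neighbour was compared with the range of the group on the log2 scale (Dixon's ratio, at its 95% critical value). Of 50 such groups of member probe sets 3 exceeded it, where chance alone gives about 1 in 20. All 3 were Sca-1Neg replicate 4, which was also the array of highest *Sox10* and smooth muscle signal. For *Ptch1* the ratio was 0.831 (a signal of 955 beside 560.2 to 613 on the other Sca-1Neg arrays). For *Smo* it was 0.933 (1288 beside 355 to 387), and for *Gli1* 0.948 (97.6 beside 50.9 to 52.7). Without this array the UGE difference of *Smo* was 2.21, against 1.76 with it. The other cells on this array were not measured separately, and their part in these signals was not tested.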

How the results depend on the processing

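Counts of called genes moved in 5 of the 6 comparisons. In UGE against Sca-1Neg (7) the count was 3 with the methods' t-test, 4 in the high study numbers alone and 3 to 7 with single arrays left out. In Sca-1Hi against Sca-1Neg (3) it was 0 with the methods' t-test, 1 in the low and 1 in the high study numbers, and 1 to 4 with single arrays left out. In Sca-1Lo against Sca-1Neg (0) it was 1 with centring on the 75th percentile or quantile normalization, with the study numbers as a block, and the low or the high numbers alone, 2 with array weights, and 0 to 1 with single arrays left out. In UGE against Sca-1Hi (2) it was 4 in the fit of only the 2 groups compared and in the high study numbers, 6 with array weights, 1 with the mean of the probe sets of a gene, and 1 to 3 with single arrays left out. In UGE against Sca-1Lo (5) it was 2 with the methods' t-test and in the fit of only the 2 groups compared, 3 with the mean of the probe sets and in the high study numbers, and 2 to 5 with single arrays left out. The number of calls over all tested probe sets moved as well. With single arrays left out it ran from 7174 to 11956 in UGE against Sca-1Neg (8326 in the high study numbers alone). It ran from 1652 to 6024 in Sca-1Hi and from 257 to 2408 in Sca-1Lo, both against Sca-1Neg. For UGE it ran from 7123 to 11317 against Sca-1Hi and from 5792 to 9852 against Sca-1Lo. Whether the member counts moved beyond these shifts was not tested. The causes were not tested.

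With the mean of its probe sets as the value of the gene, *Gli3* turned to 1.03 in UGE against Sca-1Neg, 1.39 in UGE against Sca-1Hi and 1.03 in UGE against Sca-1Lo, all called, and to 0.008 in Sca-1Lo against Sca-1Neg, uncalled, since its probe sets run in opposite directions. The uncalled UGE difference of *Gli1* was 0.0786 with array weights, 0.0912 in the low study numbers and -0.33 to 0.0795 with single arrays left out, and that of *Gli2* -1.11 to 0.52 with single arrays left out. A further 30 member differences, none called, are not given in the text. Of these 16 changed sign under at least 1 alternative, the largest being 0.8 in size, and 3 were called under at least 1 (*Gli3* in Sca-1Hi against Sca-1Neg, and *Gas1* in UGE against Sca-1Hi and against Sca-1Lo). With centring on the 75th percentile all genes together had a median difference of -0.13 in UGE against Sca-1Neg, against 0.07 without it, which left the 7 calls in place. *Ihh* lost its call in Sca-1Hi under it.

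Of 19 same-numbered pairs over all groups, 11 had a correlation of deviations over 0.1 (-0.451 to 0.558). These pairs include UGE with adult arrays, which cannot share animals, and adult arrays of unlike study number. The count therefore cannot decide whether adult sorts were paired. Adult arrays of the same study number had 0.505, 0.356, 0.183, 0.414, 0.284, 0.124, 0.558 and -0.057. Pairing by study number was not tested. Between Sca-1Lo and Sca-1Neg all 4 same-numbered pairs were over 0.1, but Sca-1Lo replicate 3 had 0.445 with Sca-1Neg replicate 4 and 0.124 with replicate 3. Their values therefore do not show pairing by number. A block on these 8 arrays alone, chosen after seeing the data, also gave 0 calls. With the replicate block the count was 6 in UGE against Sca-1Neg, where *Gas1* lost its call, 3 in Sca-1Hi, 0 in Sca-1Lo, 4 in UGE against Sca-1Hi, 5 in UGE against Sca-1Lo and 0 in Sca-1Hi against Sca-1Lo. The differences of *Gli1* and *Gli2* in UGE were 0.10 and 0.14 with this block. Few arrays and low signals limit *Gli1*, and signals near 20 the weaker probe sets.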
